A study of Arabidopsis thaliana with 4 samples.

Results

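The response regulators are the last step of the pathway by which plant cells answer cytokinin, and 5 Arabidopsis thaliana genes of the family were followed here: the type A genes RR15 (named ARR15 in the gene tables, AT1G74890) and RR16 (AT2G40670), and the type B genes RR18 (AT5G58080), RR19 (AT1G49190) and RR21 (AT5G07210). They were chosen by name, as the type A and type B regulators with a value on at least 3 of the 4 arrays. The choice was made with earlier results of these data known. These genes are 5 of the 14228 that could be matched to a probe, on an array of 26912 probes. The samples were taken at 4 days after pollination, when the endosperm, the nutritive tissue around the embryo, is still proliferating. Endosperm was cut out of silique sections with a laser in 3 replicates, and each was hybridised on 2-colour arrays against a common reference RNA, scraped from a slide after the endosperm had been removed. Replicate 1 was labelled with Cy3 and replicate 3 with Cy5, and replicate 2 was run on 2 arrays with the dyes exchanged. The labels name no accession or genotype of the plants and do not say that the replicates came from separate plants, so a p-value here reflects the spread of these samples and no more. The array descriptions call the reference whole silique RNA, whereas the design text describes it as what was left after microdissection. All endosperm samples were set against this 1 RNA, whose own spread is not measured.

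Cytokinin is perceived by histidine kinases in membranes, and the signal passes as a phosphate group through phosphotransfer proteins to the response regulators. Type B regulators carry a receiver domain followed by a DNA-binding domain of the GARP class and activate transcription. Type A regulators consist of little more than the receiver domain, are themselves among the genes that type B regulators switch on, and damp the signal. Cytokinin is known for driving cell division, and the endosperm of young seeds is known as a site of cytokinin synthesis.

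The 3 type B genes were higher in endosperm than in the reference, and of the 2 type A genes RR15 was lower. RR21, RR19 and RR18 lay 4.87-fold, 3.05-fold and 2.28-fold above the reference, and RR15 lay 2.41-fold below it. All 4 of these passed the test (limma, Benjamini-Hochberg adjusted p under 0.05), and RR16 did not. Ratios are given as endosperm over reference on the log2 scale, with the mean ± SD over replicates. The mean over all probes of an array lay between -0.0025 and -0.0007, so a ratio of 0 is close to the average probe. Levels above or below the reference are relative to that average and need not be differences in the amount of RNA. The deposited table states neither its numerator nor its log base. Endosperm is the likely numerator, since the median of 12 measured endosperm markers was above 0 on every array, between 1.69 and 2.09. The marker list was itself chosen with earlier results of these data known. Folds, and tests against a 1.5-fold difference, rest on the assumed base of 2, while p-values against no change do not depend on it. If the reference were the numerator, higher and lower would trade places throughout. Of the 19449 probes with 4 values, 57.5% passed, 32.0% as higher in endosperm and 25.5% as lower, and of the 22343 probes with 3 or 4 values 54.2% passed, 30.1% as higher and 24.1% as lower. The 3 genes higher and 1 lower among the 5 members are to be read against these shares. In tissue of this kind, fewer cells that express a gene and less of its RNA per cell cannot be told apart.

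**Figure D1:**
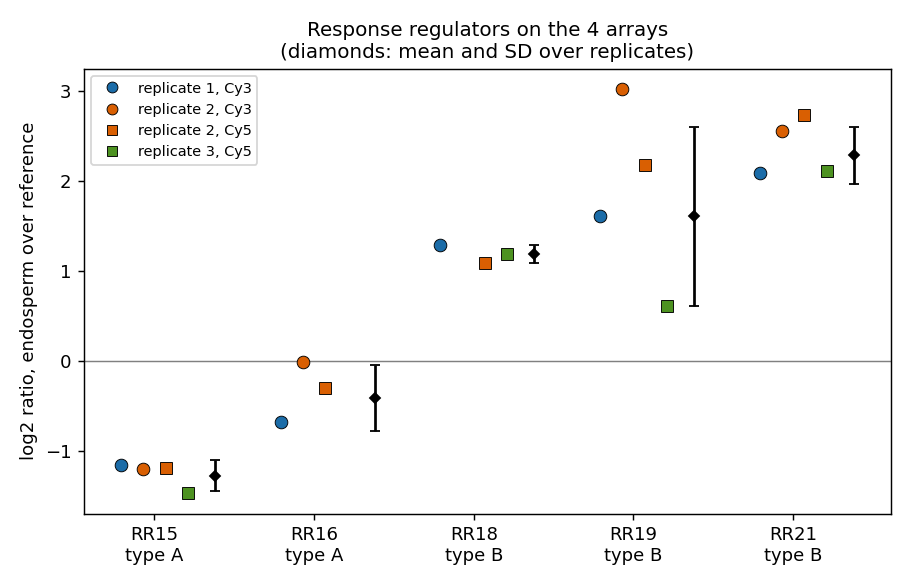
Log2 ratios of endosperm over reference (vertical axis) of the 5 response regulators on each array; circles are arrays with endosperm in Cy3, squares in Cy5, colours mark the replicate, and diamonds with bars are the mean and SD over replicates. RR18, RR19 and RR21 lie above 0 on every array with a value, RR15 and RR16 below it, and RR19 has the widest spread, from 0.62 to 3.02.

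Among the type A genes, RR15 is a close relative of RR7 and is known as a gene quickly induced by cytokinin. Its log2 ratio was -1.15 in replicate 1, -1.20 and -1.18 on the Cy3 and Cy5 arrays of replicate 2, and -1.47 in replicate 3. It was thus below the reference on all 4 arrays, with replicate 3 the lowest and the dye-swapped pair almost alike. The mean was -1.27 ± 0.17 (SD, n = 3), with a 95% interval from -1.59 to -0.95 and an adjusted p of 0.000617 (limma). RR15 also passed when tested against a 1.5-fold difference (adjusted p = 0.00704), as did 13.0% of the probes downwards. Of all probes on 4 arrays, 10.6% had a lower mean ratio.

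RR16, whose closest relative in the family is RR17, had values on 3 arrays. They were -0.67 in replicate 1 and -0.010 and -0.29 on the Cy3 and Cy5 arrays of replicate 2, and replicate 3 had no value. All 3 were below 0, but 1 of them lay at the level of the reference. The mean of the replicates present was -0.41 ± 0.37 (SD, n = 2), with replicate 3 dropped and nothing imputed. It did not pass (limma adjusted p = 0.137), and its 95% interval ran from -0.92 to 0.10. The interval therefore covers a level 1.89-fold below the reference as well as no difference.

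Both type A genes were measured together on 3 arrays, and RR16 had the higher ratio on each of them, by 0.48 to 1.19. The difference was 0.76 ± 0.40 (SD, n = 2 replicates), and it was not tested. Differences between 2 genes on the same array do not depend on a constant shift of the whole array. How the arrays were normalised is not stated, and a method that shifts probes unequally would change these differences. The differences also depend on how strongly each probe responds to its transcript, which was not measured.

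Among the type B genes, RR18 belongs to the branch of the family that holds RR1, RR10 and RR12, which carry most of the cytokinin response in vegetative tissue. Its log2 ratio was 1.29 in replicate 1, 1.09 on the Cy5 array of replicate 2 and 1.20 in replicate 3, and the Cy3 array of replicate 2 had no value. These values lie closer together than those of any other member. The mean was 1.19 ± 0.10 (SD, n = 3, with replicate 2 from its Cy5 array alone), the 95% interval 0.90 to 1.48 and the adjusted p 0.000658 (limma, probes with values on 3 or more arrays). Among probes with values in 3 replicates, 14.9% had a smaller SD. Because of the missing values, the dyes are not balanced in the means of RR18 and RR16, so a dye effect would not cancel. RR18 also passed against a 1.5-fold difference (adjusted p = 0.00853), as did 11.2% of the probes upwards.

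RR19 is paired with RR20 in a small branch of the type B family that stands apart from the branch of RR1. Its log2 ratio was 1.61 in replicate 1, 3.02 and 2.18 on the Cy3 and Cy5 arrays of replicate 2, and 0.62 in replicate 3. All 4 arrays were above the reference, with both arrays of replicate 2 the highest and replicate 3 the lowest. The mean was 1.61 ± 0.99 (SD, n = 3), the 95% interval 0.73 to 2.49 and the adjusted p 0.0106 (limma). RR19 did not pass against a 1.5-fold difference (adjusted p = 0.0583), in which 12.2% of the probes on 4 arrays passed upwards.

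The spread of RR19 was wide for these arrays. Its SD of 0.99 compares with a median SD of 0.23 over all probes, and 98.7% of the probes had a smaller one. Among the 1821 other probes whose mean ratio lay within 0.5 of its own, 29 had an SD as large or larger. The arrays of replicate 2, which hold the same RNAs, differed by 0.85 for RR19, with the lower ratio in Cy5, and 95.6% of the probes had a smaller gap between this pair. A dye term over the 4 arrays, each taken as a separate sample, put the Cy5 arrays 0.92 below the Cy3 arrays for RR19. It did not pass (limma adjusted p = 0.672). Outside the pair of replicate 2, dye and replicate coincide, so this term also holds the difference between replicates 1 and 3. It therefore cannot decide whether RR19 has a dye effect. Its mean was 2.32 on the Cy3 arrays alone and 1.40 on the Cy5 arrays alone, and it passed on each (limma adjusted p = 0.00115 and 0.0327). Each of these fits rests on a pair of arrays and holds an array of replicate 2, the highest replicate. The passes are therefore not independent of each other. Without replicate 3 the mean was 2.10 and without replicate 2 it was 1.11, so the fold over the reference ranged from 2.17 to 4.30 when 1 replicate was left out. RR19 passed in each of these fits.

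**Figure D2:**
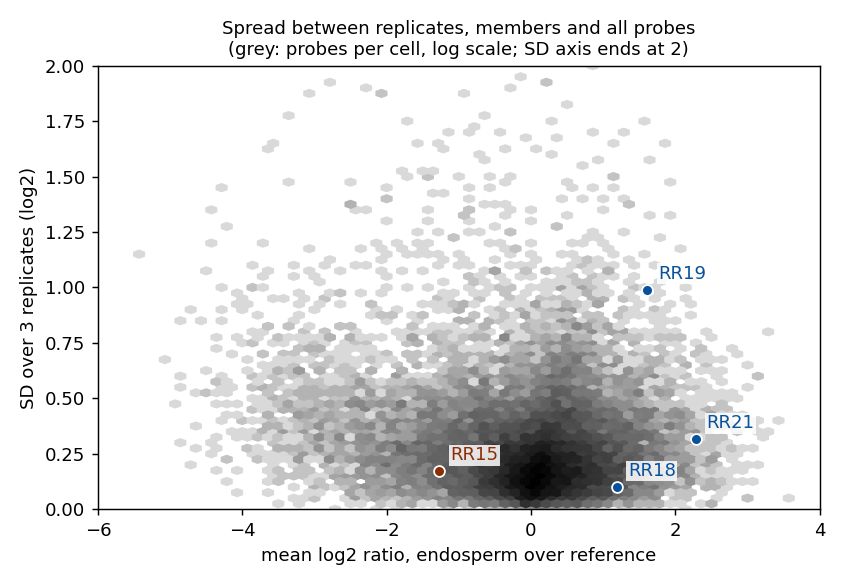
SD over the 3 replicates (vertical axis) against the mean log2 ratio (horizontal axis) for all probes with values in 3 replicates, shaded by number, with the members measured in 3 replicates as points. RR19 lies in the sparse upper part of the cloud with an SD of 0.99, while RR15, RR18 and RR21 lie in its dense lower part, between 0.10 and 0.32; a few probes with an SD above 2 are not shown.

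RR21 belongs to another small branch of the type B family, together with RR13. It had the highest mean ratio of the members, with log2 values of 2.09 in replicate 1, 2.56 and 2.74 on the Cy3 and Cy5 arrays of replicate 2, and 2.11 in replicate 3. Both arrays of replicate 2 were the highest, and replicates 1 and 3 were almost alike although they carry different dyes. The mean was 2.28 ± 0.32 (SD, n = 3), the 95% interval 1.90 to 2.67 and the adjusted p 0.000201 (limma). It passed against a 1.5-fold difference as well (adjusted p = 0.000575). Of the 19449 probes on 4 arrays, 170 had a higher mean ratio, which places RR21 above 99.1% of them.

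**Figure D3:**
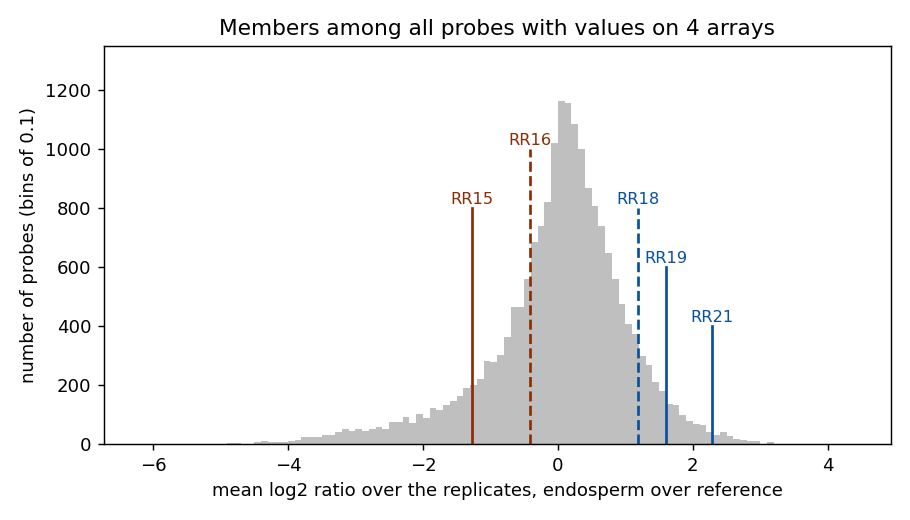
Number of probes (vertical axis, bins of 0.1) by mean log2 ratio of endosperm over reference (horizontal axis) for the 19449 probes with values on 4 arrays. Solid lines mark the members measured on 4 arrays and dashed lines those measured on 3; line heights carry no value. RR15 stands in the lower flank, RR16 left of the peak, and RR18, RR19 and RR21 in the upper flank, above 91.5%, 96.0% and 99.1% of the probes they were tested with.

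The order of the mean ratios, from lowest to highest, was RR15, RR16, RR18, RR19 and RR21. RR18 exceeded RR16 by 1.67 ± 0.41 (SD, n = 2 replicates), over the 2 arrays on which both have values. RR19 exceeded RR18 by 0.28 ± 0.83 (SD, n = 3), and in replicate 3 the order was turned, with RR19 0.58 lower. RR21 exceeded RR19 by 0.67 ± 0.74 (SD, n = 3), and on the Cy3 array of replicate 2 RR19 was the higher by 0.46. For these neighbours among the type B genes the mean difference was smaller than its SD, which does not show that they are alike. RR21 and RR18, which are not neighbours in the order, differed by 1.12 ± 0.46 (SD, n = 3), with RR21 higher on each of 3 arrays. These differences between genes were not tested. An exact two-sided permutation test of 1 such difference cannot give a p below 0.25 with 3 replicates.

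Type A and type B genes did not overlap on any array. No share over other sets of genes was computed, and sets this small can separate by their order alone. The arrays hold the same genes and a common reference, so they do not count as separate support. The lowest type B value exceeded the highest type A value by 1.96 in replicate 1, by 2.57 and 1.38 on the Cy3 and Cy5 arrays of replicate 2, and by 2.08 in replicate 3. On the Cy3 array of replicate 2 this compares both type A genes with RR19 and RR21, and in replicate 3 RR15 alone with the 3 type B genes. The widest mean difference between 2 members was that of RR21 over RR15, at 3.55 ± 0.30 (SD, n = 3), with a range of 3.24 to 3.92 over the 4 arrays. These are 5 genes chosen with earlier results of these data known, out of 22 type A and type B genes listed in all, and they do not stand for the types as a whole.

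Within single arrays, RR21 lay above 97.9% to 99.6% of the probes of an array, and RR18 above 90.6% to 90.7%. RR19 ranged more widely, from above 76.0% of probes in replicate 3 to above 99.8% on the Cy3 array of replicate 2. RR15 lay above 8.27% to 13.0% of the probes, and RR16 above 20.8% to 43.7%.

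The rest of the pathway was thinly covered by probes with a gene name. The lists of cytokinin synthesis, transport, conjugation and breakdown, of receptors, phosphotransfer proteins and response regulators, and of their relatives held 107 genes. Named probes existed for 11 of them, and 8 had values on 3 or more arrays, including the 5 members. No named probe was found for the 6 histidine kinases, the 6 phosphotransfer proteins, the 19 synthesis genes or the 7 response factors and other targets. Of the type A regulators 2 of 10 had a named probe, and of the type B regulators 4 of 12. The fourth type B probe, that of RR23, and the probe of the type C regulator RR22 had no value on any array. Of all matched probes 7.19% had none, and why cells were left empty is not stated, so nothing about the level of RR22 or RR23 follows.

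Of the 3 measured pathway genes that are not members, 0 passed as higher, 2 as lower and 1 in neither direction. Among all probes on 4 arrays, 32.0% passed as higher and 25.5% as lower, and 3 genes are too few to set against these shares. The median log2 ratio of the 3 genes was -0.75, and that of all probes on 4 arrays was 0.11. UGT76C2, which attaches glucose to nitrogen atoms of the cytokinin ring and so inactivates the hormone, was lower in endosperm. It was at -1.02, -1.12, -0.91 and -0.92 in replicate 1, replicate 2 with Cy3, replicate 2 with Cy5 and replicate 3. These arrays were close together, with a mean of -0.99 ± 0.055 (SD, n = 3) and an adjusted p of 0.00101 (limma). Its relative UGT76C1 had a value on 1 array, 0.16 on the Cy5 array of replicate 2. UGT73C1 was close to the reference, at -0.017 ± 0.052 (SD, n = 3, limma adjusted p = 0.909). AT1G02630, from the list of transport genes, was lower at -0.75 ± 0.22 (SD, n = 3, limma adjusted p = 0.00537). Against a fold change of 1.5 it did not pass (limma adjusted p = 0.392).

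The tissue labels were checked on markers. Of 12 measured endosperm markers 11 passed as higher, from IKU2 at 0.55 to AGL38 (PHE2), a type I MADS-box gene, at 2.97 ± 0.051 (SD, n = 3). IKU1 was the lowest and did not pass, at 0.10 ± 0.25 (SD, n = 3). The sign of these markers is no separate evidence, because it was used to orient the ratios. ALC, a regulator of fruit opening, was the 1 marker of silique wall and vasculature with values and was at -2.40 ± 0.22 (SD, n = 3). Of 3 seed coat markers INO, added after its value was seen, passed as lower, at -0.73 ± 0.27 (SD, n = 3). The other 2 did not pass, and DFR, the highest of the 3, was at 0.15 ± 0.27 (SD, n = 3). None of the 7 embryo markers had a named probe, so the share of embryo RNA in either sample was not measured.

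Each of the 12 endosperm markers had a smaller SD over replicates than RR19, from 0.051 for AGL38 to 0.47 for AGL91. The arrays of replicate 2 were averaged first, so a gap within that pair does not enter these SDs. On the Cy3 and Cy5 arrays of this pair AGL91 was at 0.41 and 1.90, wider apart than RR19 at 3.02 and 2.18. AGL38, at 3.33 and 2.65, was less wide apart than RR19. Their median was 1.69 in replicate 1, 2.02 in replicate 2 and 1.82 in replicate 3. In replicate 2, where RR19 and RR21 had their highest ratios, 6 of the 12 markers also had theirs, as did 27.8% of all probes on 4 arrays and 20.2% of the 2531 probes with a mean log2 ratio over 1. The median of those 2531 probes was 1.497 in replicate 1, 1.29 in replicate 2 and 1.40 in replicate 3. In replicate 3, where RR19 was at 0.62, 5 of the 12 markers had their lowest ratio, as did 31.3% of all probes and 30.8% of those with a mean over 1. The part of the marker levels in the values of the members was not tested.

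**Figure D4:**
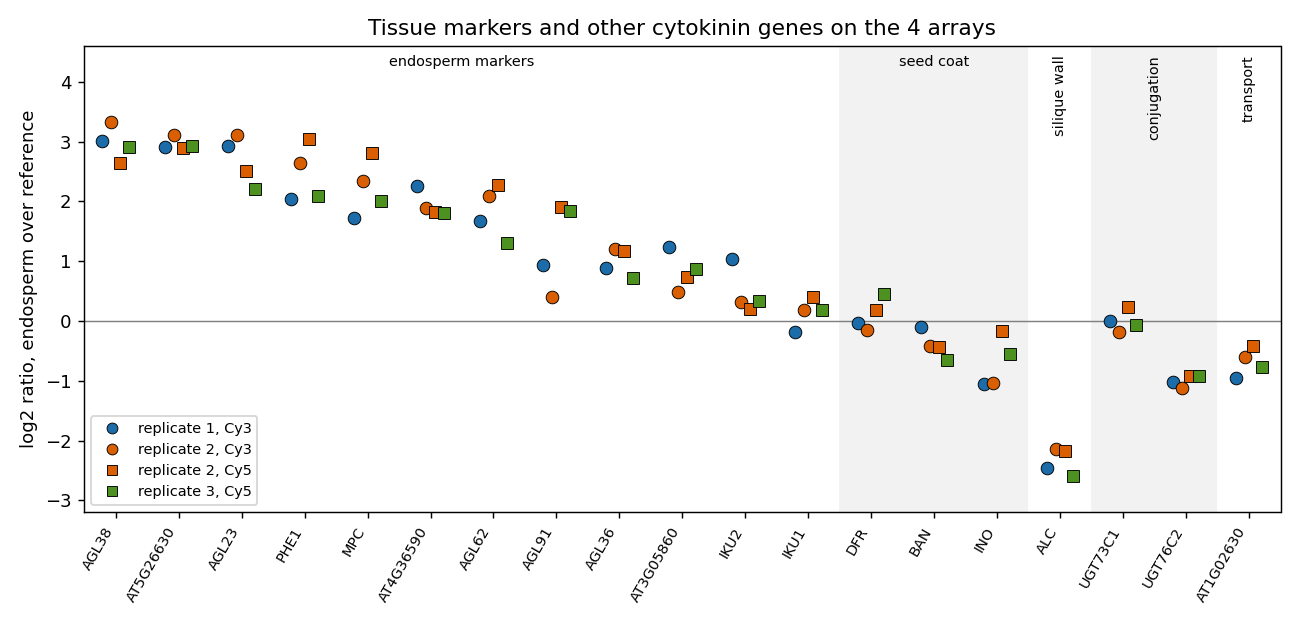
Log2 ratios of endosperm over reference (vertical axis) on each array for measured tissue markers and for the other cytokinin genes, with symbols as in the plot of the members. All endosperm markers but IKU1 are above 0 on every array; ALC is near -2.40, UGT76C2 near -0.99 and UGT73C1 near 0.

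The genes most like each member were found by the root mean square difference of log2 ratios over the arrays on which the member has a value, among 10640 to 10984 other named probes. For RR21 these were AT5G12060 (0.042), TET4, a tetraspanin gene (0.10), and AT1G09510 (0.13), over 4 arrays. For RR15 they were AT5G56890, AT5G09670 and AT4G03370, at 0.058 to 0.074 over 4 arrays. The pattern of RR19 had no such close match: the nearest were AT1G27240 (0.35), AT5G05120 and AT3G59170 (both 0.40), over 4 arrays. For RR18, over 3 arrays, they were AT1G43860, AT3G62870 and AT1G28150, at 0.019 to 0.036. On the array where RR18 has no value these were at 1.19, 1.23 and -0.060, so the likeness on the other arrays gives no value for RR18 there. For RR16, over 3 arrays, the nearest were AT1G21790, AT4G23490 and AT5G66330, at 0.027 to 0.055, and in replicate 3, where RR16 has no value, they lay between -1.04 and -0.34. Among so many genes some lie this close on a few arrays, and the likeness is a description of these ratios.

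**Figure D5:**
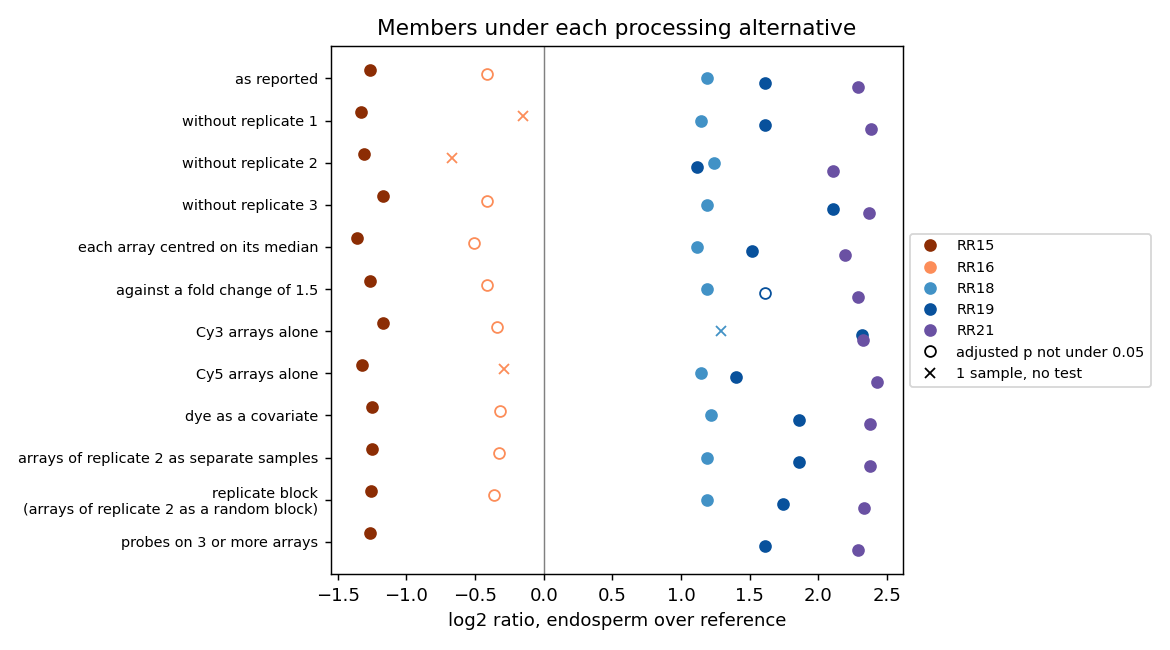
Log2 ratio of endosperm over reference (horizontal axis) of each member under the reported setting and each processing alternative (vertical axis); filled circles have an adjusted p under 0.05, open circles do not, and crosses rest on 1 sample with no test. RR15 stays between -1.36 and -1.17, RR18 between 1.12 and 1.29 and RR21 between 2.10 and 2.43, while RR19 ranges from 1.11 to 2.32.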

How the data were processed

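Log ratios of the 2 channels were used as deposited, 1 value per probe and array, and taken as log2. Per the labels' protocols, RNA was amplified by in vitro transcription, coupled to Cy dyes and fragmented; amplification can change proportions between transcripts. Scanner, background correction, normalization, the filter behind empty cells, log base and numerator are not stated, and depositing ratios alone leaves no filter on dim spots. All pairs of arrays correlated above 0 (r from 0.87 to 0.92), so dye orientations run 1 way. Probes were named through the platform's gene table and RefSeq (TAIR10.1), with 14485 of 14539 matched. The 2 arrays of replicate 2 were averaged, and the mean was compared with 0 in limma 3.58.1 (R 4.3.3, lmFit, eBayes, two-sided, Benjamini-Hochberg over all probes of a fit). RR15, RR19 and RR21 were tested among probes with 4 values, RR16 and RR18 among those with 3 or more, where 1647 probes had 2 replicates. The code was tested on simulated data. The number of arrays limits the precision. Alternatives left out each replicate, centred arrays, split or modelled the dye, kept arrays apart and tested a fold of 1.5. Members and lists were chosen with earlier results of these data known. Named are all members, every measured pathway gene (lists of 5 or fewer), the highest and lowest of each marker list, and the 3 genes most like each member; RR22, RR23 and UGT76C1 complete counts, and INO was added after its value was seen.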

Additional observations from a re-analysis of the deposited data

How the results depend on the processing

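RR15, RR18 and RR21 kept their direction and passed in every alternative in which they could be tested, and RR16 kept its direction and did not pass. RR19 lost its call against a 1.5-fold difference (1.61, adjusted p = 0.0583) and kept it in the other 10 alternatives, with adjusted p from 0.000284 to 0.0327. The alternatives with the arrays of replicate 2 as separate samples, or with dye as a covariate, count the same RNA more than once. Passes in them add no separate support. Leaving out 1 replicate gave -1.33 to -1.17 for RR15, -0.67 to -0.15 for RR16, 1.14 to 1.24 for RR18, 1.11 to 2.10 for RR19 and 2.10 to 2.38 for RR21. RR16 then rests on 1 replicate without replicate 1 or 2, with no test. On the Cy3 arrays alone (RR18) and the Cy5 arrays alone (RR16) 1 array is left, also with no test. Of the 19449 probes with values on 4 arrays, 2364 passed as higher and 2521 as lower against a 1.5-fold difference (6231 and 4957 against no change). With arrays centred on their medians, RR16 was at -0.51 (adjusted p = 0.0914). The sign of UGT73C1 turned on the Cy5 arrays alone (0.079), and with 1 replicate left out it ranged from -0.040 to 0.011. Kept as a replicate block, with a correlation of 0.36 between the arrays of replicate 2, the data gave -1.26, -0.36, 1.19, 1.74 and 2.33 for RR15, RR16, RR18, RR19 and RR21, and no call changed. No paired analysis was possible because there is 1 group of ratios. For RR16 the missing array limits what can be said.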
